A study of Homo sapiens with 6 samples.

Results

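The genes described here encode aminoacyl-tRNA synthetases, the enzymes that attach each amino acid to its tRNA before translation. They were taken from the count table by symbol, and all 36 listed symbols were present among the 50883 genes of the table and passed the filter on low counts. The list holds 20 cytosolic and 16 mitochondrial enzymes, all encoded in the nucleus. The RNA came from D283 cells, an established human line of medulloblastoma, a childhood brain tumour that arises in the cerebellum. In both groups the cells had been infected with a lentivirus that expresses GFP, and RNA was collected after 7 days of culture. The virus carried a non-targeting guide RNA in the 3 control libraries and a guide against OTX2, a homeobox transcription factor, in the 3 OTX2 knockout libraries. The infections were made in triplicate on a single line, and the labels do not say further whether each library is an infection of its own. The nuclease, the number of guides and the share of edited cells were not given in the sources used here.

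Each synthetase recognises its amino acid and its tRNA, forms an aminoacyl adenylate with ATP, and transfers the amino acid to the tRNA end. Class I and class II enzymes have unrelated catalytic folds. In human cells several cytosolic enzymes sit together in the multi-tRNA synthetase complex, held by the scaffold proteins AIMP1, AIMP2 and EEF1E1. Mitochondria translate their own genome and charge mitochondrial tRNAs with imported enzymes, most of them encoded by separate genes whose symbols end in 2. Uncharged tRNA activates the kinase GCN2 (EIF2AK4), which raises translation of the transcription factor ATF4. ATF4 is known to raise transcription of many cytosolic synthetase genes through the C/EBP-ATF response element.

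The letters of that element were found near the start sites of several cytosolic members. RefSeq promoter windows (GRCh38 patch 14, 250 bases before to 50 bases after each listed start) were found for 30 of the 36 genes, 16 cytosolic and 14 mitochondrial. LARS, VARS, YARS, AARS2 and VARS2 are among those without one. The search covered both strands. TGATGCAA was found for 6 of the 30 genes, all cytosolic, and for 1.08% of the 27305 genes with a window. The sites are shown because all 6 genes fell in the knockout libraries. Each is printed on the strand of its gene, with the match in capitals (TTGCATCA is the same element read on the other strand).
MARS (chr12:57488053-57488082, plus strand): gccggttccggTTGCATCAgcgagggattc
AARS (chr16:70289675-70289704, minus strand): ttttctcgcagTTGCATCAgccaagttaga
IARS (chr9:92293692-92293721, minus strand): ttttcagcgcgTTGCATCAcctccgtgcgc
TARS (chr5:33440956-33440985, plus strand): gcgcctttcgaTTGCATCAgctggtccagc
NARS (chr18:57621804-57621833, minus strand): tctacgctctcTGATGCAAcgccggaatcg
CARS (chr11:3057407-3057436, minus strand): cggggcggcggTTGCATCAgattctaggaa
Counted with 0 as the start base, the match begins at position -4 for MARS and at -187 for AARS, the farthest of the 6. The looser form TGATGNAAN, which overlaps TGATGCAA, was found for 8 of the 30 genes and for 4.45% of all genes, and it added GARS and YARS2.

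Further motifs were searched in the same windows. The E-box CACGTG, bound by MYC with MAX, was found for IARS, CARS2, EARS2 and MARS2, 4 of 30 genes against 8.77% of all genes. CCGGAA, the core bound by ETS factors, was found for 20 of 30 genes, 12 of 16 cytosolic and 8 of 14 mitochondrial, against 20.1% of all genes. TAATCC, a site of OTX-type homeodomains, was found in the windows of CARS alone, against 7.81% of all genes. These matches are letters in a window and do not show binding. They were counted as a description, with no test. The shares of all genes cover every gene with a window, tested here or not, while all members were tested.

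HARS and HARS2, the cytosolic and mitochondrial histidyl-tRNA synthetases, lie head to head on chromosome 5. Their RefSeq starts are separated by the 84 bases shown here, printed because neither gene passed the test. In GENCODE release 29 HARS extends past this stretch, to 140691862, and shares 437 exon bases with HARS2. The 3 matches to CCGGAA or its other strand TTCCGG are in capitals, and the stretch is read on the plus strand, towards HARS2.
HARS-HARS2 (chr5:140691371-140691454, plus strand): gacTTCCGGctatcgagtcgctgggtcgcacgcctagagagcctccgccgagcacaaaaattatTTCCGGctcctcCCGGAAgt

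Total counts per library ran from 54540645 to 62166870. Levels are counts per 1000000 (CPM) on library sizes with TMM scaling (trimmed mean of M values), and the synthetases together took 0.65% to 0.774% of all counts. The targeted gene was lower in the knockout libraries, with OTX2 at 1002, 979 and 909 CPM in control replicates 1 to 3 and 765, 824 and 887 CPM in knockout replicates 1 to 3. These ranges did not overlap (log2 fold change -0.22, SE 0.06, edgeR adjusted p = 0.00646, Benjamini-Hochberg over all tested genes). On library totals alone they did, at 889 to 986 and 797 to 904 CPM, with an edgeR adjusted p of 0.0404. An edited gene can still be transcribed, so its RNA checks the labels only weakly. The other medulloblastoma markers, MYC, CRX, IMPG2 and NPR3, were at 236 CPM or more in every library on library totals. All 5 were lower in knockout by the edgeR test, and their sum ran from 4175 to 4506 CPM in control and from 3138 to 3633 CPM in knockout. MYC, a transcription factor that drives growth genes, had a log2 fold change of -0.52 (SE 0.08). The CRX call was lost with library totals alone, without control replicate 2 and without knockout replicates 1 or 2. Markers of immune and erythroid cells summed to at most 0.72 CPM in any library, with CD3E and HBB at 0 counts throughout. Endothelial markers summed to 2.18 to 3.25 CPM in control and 5.17 to 6.15 CPM in knockout, mostly VWF, and fibroblast markers to 4.03 to 4.48 and 5.52 to 6.08 CPM, mostly PDGFRA. VWF, PECAM1 and DCN were higher in knockout by the same test, and CDH5 was at 0 in the controls. PECAM1 had 2, 2 and 7 counts in the controls, and its call was lost with DESeq2, with a filter of 1 CPM in 3 libraries, without control replicate 2 and without knockout replicate 1. The DCN call was lost with that filter. Mitochondrially encoded genes took 0.764% of counts in control replicate 1, against 0.44% to 0.601% elsewhere. The part of these shares and markers in the results was not tested. In bulk RNA, fewer cells of a type and less RNA per cell cannot be told apart.

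Synthetase RNA was lower in the OTX2 knockout libraries. Of the 36 genes, 24 fell and 0 rose at an adjusted p under 0.05 (edgeR's quasi-likelihood test), a share of 66.7%. No member rose at an unadjusted p under 0.05, with DESeq2 or with limma-voom. Over all 18420 tested genes 18.5% fell and 21.2% rose by the same test. The median log2 fold change of the 36 genes was -0.23, against 0.0062 over all tested genes. Fitted log2 fold changes were below 0 for 33 genes and above 0 for HARS, WARS and AARS2. The changes were small, from -0.58 for MARS to 0.09 for WARS, with a standard error of at most 0.07 for 34 genes. Against a change of 1.2-fold in place of no change (glmTreat), 5 genes were lower, where 4.44% of all genes were. Scaling to library totals alone gave 17 lower and 2 higher genes, HARS and WARS, where 11% of all genes were lower and 28.3% higher, and it moved the median of all genes to 0.08. Without control replicate 1, the library with the highest mitochondrial share, 26 of the 36 fell, against 19.3% of all genes. Without knockout replicate 2 the count was 19, the lowest with a single library left out, against 14% of all genes.

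**Figure D1:**
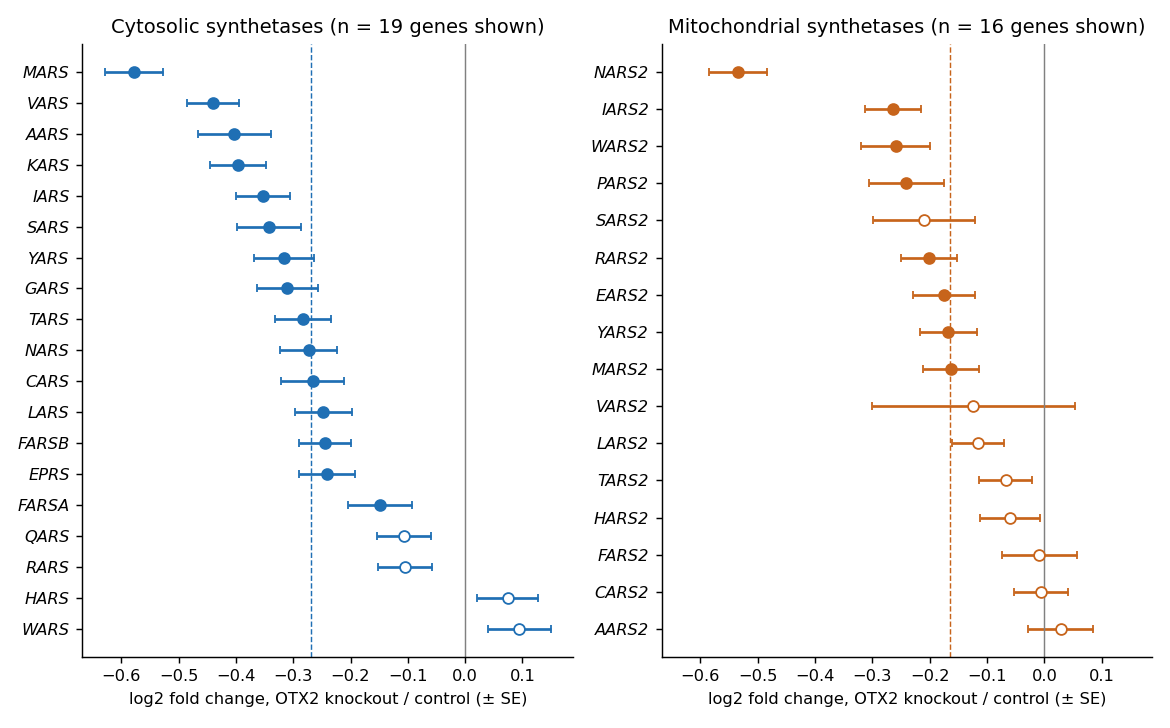
Log2 fold change of 35 synthetase genes, OTX2 knockout over control, with its standard error from the fit over 3 libraries per group. Filled points have an adjusted p under 0.05, and dashed lines mark the medians of all 20 cytosolic and 16 mitochondrial genes, -0.27 and -0.17. The cytosolic genes run from MARS at -0.58 to WARS at 0.09, and NARS2 at -0.53 stands below the other mitochondrial genes.

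**Figure D2:**
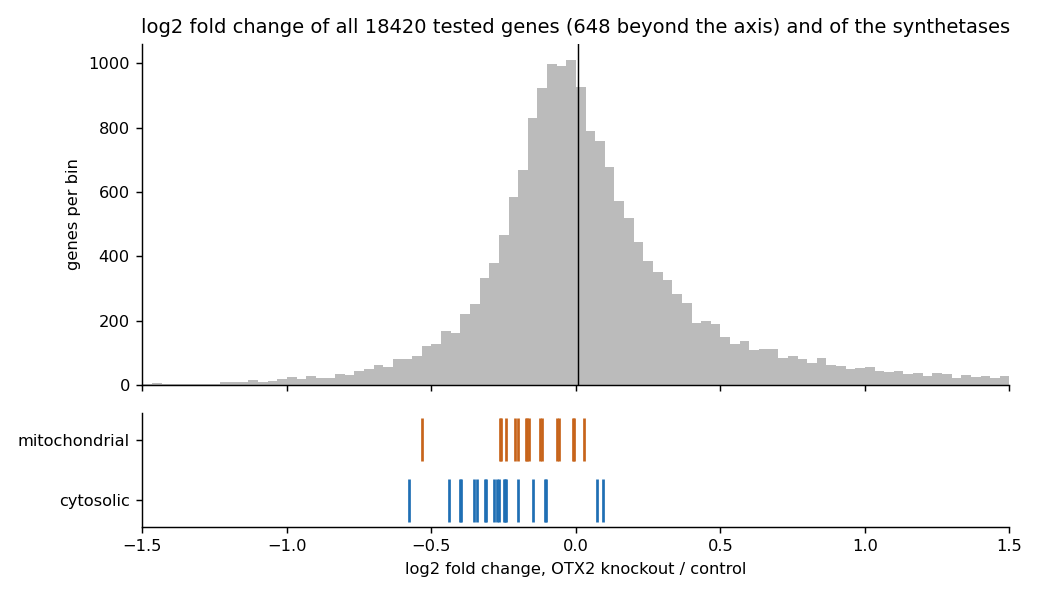
Histogram of the log2 fold changes of all 18420 tested genes, OTX2 knockout over control, with 648 genes beyond the axis, above the values of the 20 cytosolic and 16 mitochondrial synthetases as ticks. The vertical line marks the median of all genes at 0.0062, and 33 of 36 ticks lie below 0.

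Among the 20 cytosolic enzymes 16 fell and 0 rose, 80% of them, and the median log2 fold change was -0.27. CPM ranges of the groups did not overlap, with knockout below control, for 17 of the 20 genes, where 23% of all tested genes did the same. Their summed level was 6575, 7012 and 6609 CPM in the controls and 5308, 5634 and 5503 CPM in the knockout libraries, a ratio of 0.814. The sum is a description, since the genes were chosen with earlier results known. Of the 16 calls, FARSA was lost without any single library other than control replicate 1 (adjusted p between 0.0652 and 0.198).

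MARS, the methionyl-tRNA synthetase that also charges the initiator tRNA, had the largest fall of the 36 genes. It was at 518, 553 and 515 CPM in the controls, and the knockout libraries had 348, 374 and 341 CPM. All knockout libraries lay well below all controls, and the mean dropped 1.49-fold, 529 ± 21.5 to 354 ± 17.6 CPM with n = 3 and SD (log2 fold change -0.58, SE 0.05, edgeR adjusted p = 3.57e-07). MARS lies on chromosome 12 from 57475445 to 57517569 (GRCh38, GENCODE release 29), on the plus strand. Its exons overlap DDIT3 and ARHGAP9 on the other strand, whose counts were 7.1% and 4.68% of its own.

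VARS, the valyl-tRNA synthetase, which associates with elongation factor 1, was next among the cytosolic genes. Its levels were 199.5, 208 and 198 CPM in control and 148, 152 and 146 CPM in knockout, and replicates within each group lay close together. The fall was 1.36-fold, with a log2 fold change of -0.44 (SE 0.04, edgeR adjusted p = 1.74e-06). VARS spans chromosome 6 positions 31777518 to 31795953 (minus strand).

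KARS encodes the lysyl-tRNA synthetase of both the cytosol and, by alternative splicing, the mitochondrion. It was at 214, 227 and 223 CPM in the controls and 160.1, 169 and 175 CPM in knockout, without overlap. The log2 fold change was -0.40 (SE 0.05, edgeR adjusted p = 1.07e-05). Its exons overlap TERF2IP on the other strand, which had 35.7% of its count and itself fell (log2 fold change -0.28), so the KARS value is uncertain.

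AARS, the alanyl-tRNA synthetase, showed a fall of like size with more spread. Control libraries held 233, 251 and 213 CPM, and knockout libraries 167, 191 and 169 CPM. The log2 fold change was -0.40 (SE 0.06, edgeR adjusted p = 0.000147). IARS, the isoleucyl-tRNA synthetase, had the highest CPM of the family. Its levels were 1131, 1206 and 1164 CPM in control and 883, 935 and 924 CPM in knockout, a fall of 1.28-fold (log2 -0.35, SE 0.05). SARS, the seryl-tRNA synthetase, was at 395, 435 and 376 CPM in the controls and 305, 329 and 318 CPM in knockout (log2 -0.34, SE 0.06). For AARS, IARS and SARS no knockout library reached the lowest control. AARS (70252295 to 70289543) and KARS (75627474 to 75648643) both lie on chromosome 16, IARS on chromosome 9 (92210207 to 92293756) and SARS on chromosome 1 (109213918 to 109238169).

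The remaining cytosolic calls ranged from a log2 fold change of -0.32 to -0.15. YARS (tyrosyl-tRNA synthetase) fell 1.24-fold, with exons that overlap S100PBP, which had 27.4% of its count. GARS, the glycyl-tRNA synthetase of cytosol and mitochondrion, also fell 1.24-fold. TARS (threonyl) fell 1.22-fold, NARS (asparaginyl) 1.21-fold, CARS (cysteinyl) 1.2-fold and LARS (leucyl) 1.19-fold. EPRS, a fusion that charges both glutamate and proline, fell 1.18-fold, with 773 ± 27.4 CPM in control and 654 ± 26.9 CPM after knockout (SD, n = 3 each). Of the subunits of phenylalanyl-tRNA synthetase, FARSB fell 1.18-fold and FARSA 1.11-fold, and the difference between them was not tested.

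Of the cytosolic genes, QARS, RARS, HARS and WARS did not pass. For QARS (glutaminyl) and RARS (arginyl) the log2 fold change was -0.11 in both, the edgeR adjusted p was 0.0875 and 0.0878, and the CPM ranges did not overlap. RARS passed as lower without control replicate 1 (0.0243) and without knockout replicate 3 (0.0415). HARS had 77.9 ± 5.45 CPM in control and 82 ± 1.98 CPM in knockout (SD, n = 3 per group), with overlapping ranges, and its count is uncertain because exons overlap HARS2 and WDR55. WARS, the tryptophanyl-tRNA synthetase and a gene known to be induced by interferon gamma, was at 90.3, 98.5 and 91 CPM in the controls and 99.7, 106 and 93.2 CPM in knockout. The WARS groups overlapped, and its log2 fold change was 0.09 (SE 0.06, edgeR adjusted p = 0.194). With library totals alone HARS and WARS passed as higher (adjusted p = 0.0339 and 0.0185), where the direction of the fit was the same.

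**Figure D3:**
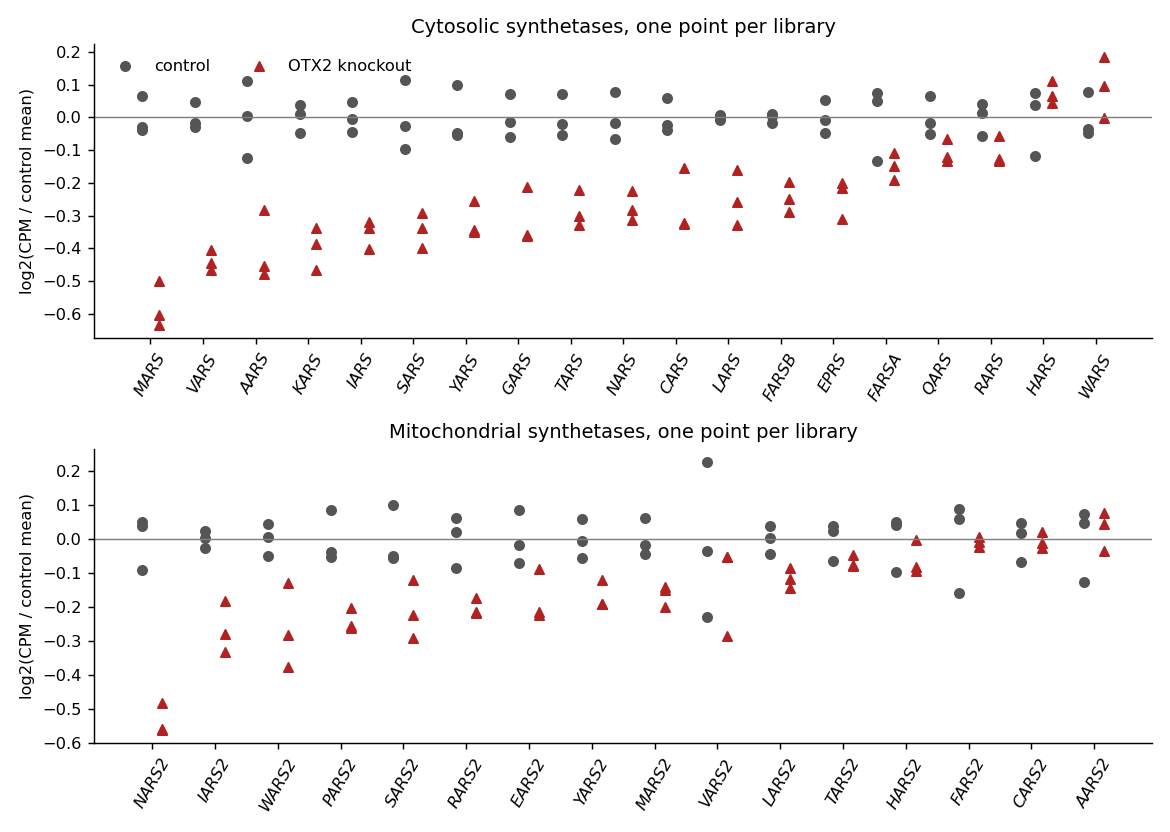
Level of 35 synthetase genes in each library as log2 of its CPM over the control mean, with grey circles for the 3 control and red triangles for the 3 OTX2 knockout libraries. For 16 of the 19 cytosolic and 10 of the 16 mitochondrial genes plotted, all triangles lie below all circles, as they do for 23% of all tested genes. For no gene do they all lie above, which 26.2% of all tested genes show.

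The genes were also read by structure and assembly, beside the 18.5% of all tested genes that fell. Of the 8 cytosolic members of the multi-tRNA synthetase complex, 6 fell, all except QARS and RARS, with a median log2 fold change of -0.24. Outside the complex 10 of 12 cytosolic genes fell (median -0.28). Leaving out EPRS, which holds a domain of each class, 12 of 18 class I genes fell (median -0.19) and 11 of 17 class II genes (median -0.24), cytosolic and mitochondrial enzymes together. Of 12 cytosolic genes listed as induced by ATF4, 11 fell, all except WARS (median -0.30), and of the other 8 cytosolic genes 5 fell (median -0.17). The difference between these sets was not tested.

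The genes with TGATGCAA near their start had log2 fold changes from -0.58 (MARS) to -0.27 (CARS), with a median of -0.32. Of these, 6 of 6 fell, where 18.5% of all tested genes fell. Of the 10 cytosolic genes with a window and without TGATGCAA, 6 fell. The 10 ran from -0.40 (KARS) to 0.09 (WARS), with a median of -0.20. They include GARS (log2 -0.31), which has the looser form TGATGNAAN. The 4 cytosolic genes without a window all fell, LARS, VARS and YARS among them. Genes of each kind fell, and the ranges overlapped.

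Among the 16 mitochondrial enzymes 8 fell and 0 rose, 50% of them, where 18.5% of all tested genes fell. Their median log2 fold change was -0.17. Their summed level was 1031, 1067 and 1078 CPM in control and 932, 929 and 953 CPM in knockout, a ratio of 0.886. The count was 5 without control replicate 3 (16% of all genes), 5 without knockout replicate 2, 5 at an adjusted p under 0.01 (12.4% of all genes) and 3 with library totals alone. The last 3 were NARS2, IARS2 and WARS2.

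NARS2, the mitochondrial asparaginyl-tRNA synthetase, had the largest mitochondrial change. It was at 77.1, 84.5 and 85 CPM in control and at 55.8, 55.7 and 58.9 CPM in knockout. The groups were far apart, and the mean dropped 1.45-fold, 82.2 ± 4.42 to 56.8 ± 1.81 CPM with n = 3 and SD (log2 fold change -0.53, SE 0.05, edgeR adjusted p = 8.13e-07). NARS2 spans chromosome 11 positions 78435961 to 78574874 (minus strand). It was the only mitochondrial gene past the test against a 1.2-fold change.

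IARS2 (isoleucyl) was the most abundant mitochondrial member, at 278, 274 and 268 CPM in control and 217, 225 and 241 CPM in knockout. It fell 1.2-fold (log2 -0.26, SE 0.05, edgeR adjusted p = 0.000527). WARS2 (tryptophanyl) was at 46, 47.3 and 44.2 CPM in the controls and 35.3, 37.7 and 41.9 CPM in knockout, also a 1.2-fold fall. RARS2 (arginyl) was at 65.8, 59.4 and 63.9 CPM in the controls and 55.9, 54.3 and 54.2 CPM in knockout. In all 3 genes the groups were separate, with knockout replicate 3 nearest to control for IARS2 and WARS2. PARS2 (prolyl) fell 1.18-fold, EARS2 (glutamyl) 1.13-fold, MARS2 (methionyl) 1.12-fold and YARS2 (tyrosyl) 1.12-fold. Exons of EARS2 overlap UBFD1, which had 181% of its count and a log2 fold change of 0.02, so the EARS2 value is uncertain. The calls lost without single libraries were EARS2 (control replicate 3, knockout replicates 1 and 2), MARS2 and YARS2 (control replicate 3, knockout replicate 2) and PARS2 (control replicate 2).

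The other 8 mitochondrial genes did not pass. LARS2 (leucyl) was near the threshold at a log2 fold change of -0.12 (edgeR adjusted p = 0.0545), and it passed with DESeq2 (0.0311) and limma-voom (0.0495). CARS2, FARS2, AARS2, HARS2 and TARS2 had log2 fold changes between -0.07 and 0.03. Exons of CARS2 overlap ING1 and those of HARS2 overlap HARS and ZMAT2, so both are uncertain. SARS2 and VARS2 were thinly counted, with 1880 and 360 counts over the 6 libraries. Exons of SARS2 overlap MRPS12, which had 657% of its count, and those of VARS2 overlap GTF2H4, so both are uncertain. VARS2 held 1.06 ± 0.169 CPM in the controls and 0.969 ± 0.0872 CPM after knockout (SD, n = 3 each). Its standard error of 0.18 on the log2 scale was the largest of the 36.

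Levels can be compared between genes only per length of transcript. On CPM per kilobase of exon, from the merged exons of each gene in GENCODE release 29, the cytosolic median in control was 51.6 and the mitochondrial median 14.1. IARS (158), EPRS (142), NARS (111) and SARS (105) were the highest, and VARS2 (0.125), SARS2 (1.76) and FARS2 (4.02) the lowest. SARS2 shares 1492 exon bases with AC011455.2, and VARS2 1858 with GTF2H4, both on the same strand. The levels of SARS2 and VARS2, and ratios to them, are therefore uncertain. Pairing the enzymes that serve the same amino acid gave 17 pairings, in which EPRS and FARS2 each occur more than once. The cytosolic enzyme was higher per kilobase in 15, with a median control ratio of 4.24. The exceptions were HARS to HARS2 (ratio 0.694) and CARS to CARS2 (0.952). With the longest transcript as length, 16 cytosolic enzymes were higher, and HARS to HARS2 turned to 1.05.

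The changes of paired enzymes were set side by side. The cytosolic log2 fold change was the lower in 13 of the 17 pairings, among them EPRS to PARS2, where both were -0.24. For methionine it was -0.58 for MARS and -0.16 for MARS2, and for alanine -0.40 for AARS and 0.03 for AARS2. Asparagine went the other way, with -0.27 for NARS and -0.53 for NARS2, as did tryptophan, with 0.09 for WARS and -0.26 for WARS2. Per library, the log2 ratio of MARS to MARS2 in CPM was at least 3.55 in control and at most 3.35 in knockout. The log2 ratio of NARS to NARS2 in CPM was at most 2.50 in control and at least 2.63 in knockout, and that of WARS to WARS2 at most 1.06 and at least 1.15. The ranges of this ratio overlapped between groups for the isoleucine, leucine, serine, valine, tyrosine, glutamate, proline and arginine pairings. With 3 libraries against 3, an exact permutation test of such a ratio cannot go under 0.10, so these differences are given as values.

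**Figure D4:**
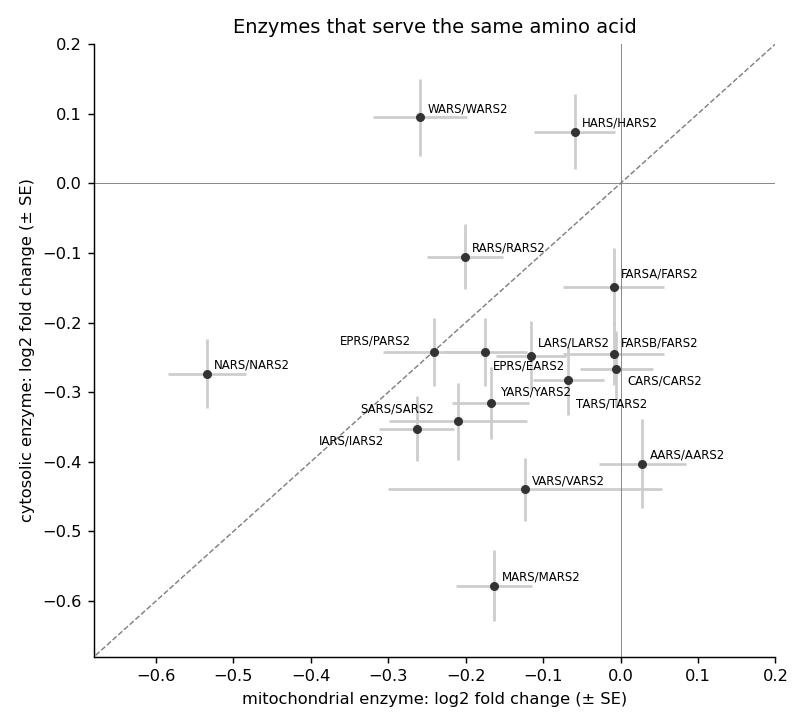
Log2 fold change (OTX2 knockout over control, ± SE) of the mitochondrial enzyme on the horizontal axis against that of the cytosolic enzyme for the same amino acid on the vertical axis, for 17 pairings. The dashed line marks equal change, 13 points lie below it, and NARS/NARS2, WARS/WARS2, HARS/HARS2 and RARS/RARS2 lie above it.

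Other genes of tRNA charging were read from lists of neighbouring steps, and of 87 tested genes in all these lists 34 fell and 4 rose, where 18.5% of all tested genes fell and 21.2% rose. Of the 3 scaffolds of the synthetase complex AIMP2 fell by 0.31 and EEF1E1 by 0.19 on the log2 scale, and AIMP1 did not pass (-0.07). The EEF1E1 call was lost without knockout replicate 2 and with library totals alone. Of 4 genes that complete mitochondrial charging, the amidotransferase subunits GATB (PET112 in the table) and QRSL1 fell, each by 0.15 on the log2 scale, while MTFMT and GATC did not pass. Both calls were lost when control replicate 2 or 3, or knockout replicate 2, was left out, and that of QRSL1 also without knockout replicate 1. With library totals alone neither GATB nor QRSL1 passed. Among 4 editing and synthetase-like enzymes 1 rose and none fell by edgeR, at an unadjusted p under 0.05, with DESeq2 or with limma-voom, but 1 fell without control replicate 1 or 2. The gene that rose was TARSL2, a paralogue of TARS. It was at 13.5, 15 and 14.6 CPM in the controls, and the knockout libraries had 28.4, 30.2 and 30.2 CPM. Every knockout library was well above every control, a 2.06-fold rise (log2 fold change 1.04, SE 0.06, edgeR adjusted p = 2.61e-09), while TARS fell.

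**Figure D5:**
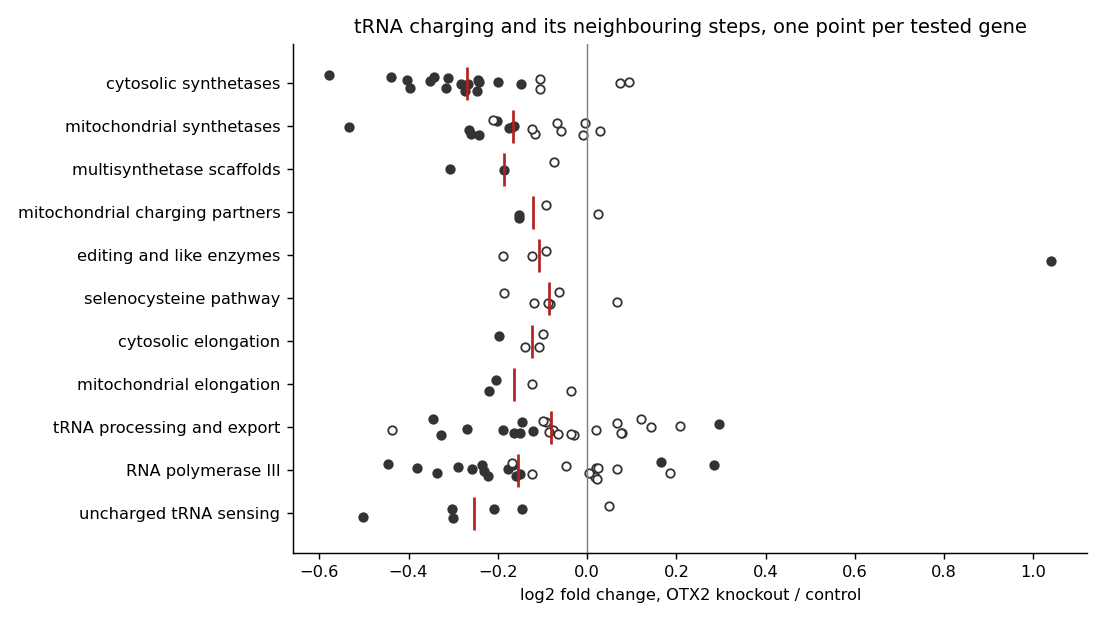
Log2 fold change (OTX2 knockout over control) of each tested gene in the synthetase groups and in lists of neighbouring steps, without the mitochondrial tRNAs, with filled points for an adjusted p under 0.05 and red bars for the list medians. TARSL2 at 1.04 is the point farthest to the right, and the cytosolic synthetases have the lowest median of the lists shown, -0.27.

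Of 24 genes of RNA polymerase III and its factors, which transcribe tRNA genes, 12 fell and 2 rose (median -0.15), against 18.5% and 21.2% of all tested genes. The 12 became 9 without knockout replicate 1 or 2 (14.3% and 14% of all genes). With library totals alone 8 fell and 3 rose, where 11% of all genes fell and 28.3% rose. POLR3G, a polymerase subunit, fell by 0.45 on the log2 scale, with 28.1 ± 1.6 CPM in control and 20.6 ± 0.0956 CPM after knockout (SD, n = 3 each), and POLR3B and POLR3D fell by 0.38 and 0.34. The 12 include MAF1, known as a repressor of the polymerase (log2 -0.15), named after its value was seen, whose call was lost without control replicate 2 or any knockout library. The genes that rose, named after their values were seen, were POLR3GL, the alternative to POLR3G in the polymerase (log2 0.28), and GTF3C4 (0.17, lost without control replicate 3 and without knockout replicates 2 or 3). Of 24 genes of tRNA processing and export, 8 fell and 1 rose (median -0.08), against 18.5% and 21.2% of all tested genes. The 8 became 5 without control replicate 2 or knockout replicate 1, and with library totals alone 3 fell and 3 rose, where 11% of all genes fell and 28.3% rose. XPOT, which exports tRNA from the nucleus, fell by 0.33 on the log2 scale, with 513 ± 15.8 CPM in control and 409 ± 12.3 CPM after knockout. ELAC2, which trims the 3′ ends of tRNA precursors, fell by 0.27 and the RNase P subunit RPP40 by 0.35. The gene that rose was KIAA0391, the nuclease of mitochondrial RNase P (log2 0.30), also named afterwards.

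Of 4 tested cytosolic elongation factors 1 fell, EEF1B2 (log2 -0.20), where 18.5% of all tested genes fell. EEF2 and EEF1D, at -0.14 and -0.11, did not pass. All 4 fell without control replicate 1, against 19.3% of all genes. Of 4 mitochondrial elongation factors GFM1 and TUFM fell, by 0.22 and 0.20 on the log2 scale, beside the same 18.5%. The TUFM call was lost with library totals alone. Of the 6 selenocysteine genes 0 passed by edgeR, DESeq2 or limma-voom, and 1 had an unadjusted p under 0.05, EEFSEC (log2 -0.19, edgeR adjusted p = 0.0741). In other settings 1 fell without control replicate 1 or 2, and 1 rose with library totals alone. Of 22 mitochondrial tRNA genes 8 had enough counts to be tested. Of these 8, 2 fell, where 18.5% of all tested genes fell. Mean levels were low, 0.96 CPM in control and 0.51 in knockout for MT-TI, and 1.57 and 1.06 for MT-TW. Both calls were lost without control replicate 1, which has the highest mitochondrial share, or without knockout replicate 2. That of MT-TI was also lost with the filter of 1 CPM in 3 libraries, and that of MT-TW with library totals alone.

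Of 6 genes that sense uncharged tRNA or act below that signal 5 fell, with a median of -0.25, where 18.5% of all tested genes fell. The count was 3 without control replicate 2 or knockout replicate 2, where GCN1 (GCN1L1 in the table) and DDIT3, whose exons overlap MARS, were lost. With library totals alone 3 fell and 1 rose, where 11% of all genes fell and 28.3% rose. ATF4 was at 795, 895 and 825 CPM in the controls and 658, 720.2 and 663 CPM in knockout, without overlap (log2 fold change -0.30, SE 0.05, edgeR adjusted p = 0.000469). ATF5 fell by 0.50 and IMPACT, an inhibitor of GCN2 activation, by 0.30 on the log2 scale. ATF4 is controlled mostly in translation, which RNA levels do not show.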

How the data were processed

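Total RNA of D283 cells was sequenced in 3 control and 3 OTX2 knockout libraries. The authors deposited unnormalized counts per gene, 1 column per library. Per the submitters' processing notes, the tools include STAR and the build is hg38. The counting program, annotation and strand setting were not given in the sources used here, so a gene is called uncertain where its exons overlap a gene holding over 10% of its count (8 of the 36).

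The test used edgeR 4.0.16 under R 4.3.3 (filterByExpr, TMM, glmQLFit and glmQLFTest; 4 residual degrees of freedom). P-values were adjusted over 18420 genes (Benjamini-Hochberg, threshold 0.05). SE is the log2 fold change over the square root of F. DESeq2 1.42.0, limma-voom 3.58.1, other scalings and filters, and leaving out each library were alternatives, and those for the further lists were added after seeing the data. Counting limits cover counting error only, 3 counts being 0.0483 to 0.055 CPM. P-values measure the spread between these libraries, which may be technical.

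The members and lists were chosen with earlier results of these data known. Counts and medians cover all 36 members, of which 35 are named and 1 is not reported here, with library values for those with the smallest adjusted p (6 cytosolic, 4 mitochondrial), WARS and OTX2, and up to 3 genes of each further list. The fits were checked on simulated data, where no minimum recovery was required for changes of 1.2-fold. That check also allowed a share of false calls above the threshold of 0.05. Coordinates are from GENCODE release 29, promoter sequences from RefSeq.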

Additional observations from a re-analysis of the deposited data

How the results depend on the processing

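Over 14 alternatives (scaling, filter, tool, gene removal and each library left out), 17 of the 24 falling genes kept their call, 14 cytosolic and 3 mitochondrial. Leaving out single libraries gave 19 to 26 falling genes in all, 14 to 17 cytosolic and 5 to 9 mitochondrial, with 0 rising and a median log2 fold change of -0.24 to -0.21. With library totals alone 2 genes rose, both cytosolic, 3 mitochondrial genes fell, and the median was -0.15. Against a 1.2-fold change 5 genes fell, 4 cytosolic and 1 mitochondrial, and at a threshold of 0.01 5 mitochondrial genes fell. Genes near 0 changed sign without passing the test. CARS2 was at 0.0116 with upper-quartile factors, 0.0734 with library totals alone, 0.0093 with the filter of 1 CPM in 3 libraries and between -0.0416 and 0.0151 without single libraries. FARS2 was at 0.0083, 0.0701, 0.0058 and between -0.0853 and 0.0343 in the same settings. AARS2 lay between -0.0349 and 0.0633 without single libraries, and with library totals alone HARS2 was at 0.0201 and TARS2 at 0.0117. Per longest transcript the log2 ratio of HARS to HARS2 was 0.0687, against -0.53 per merged exon length. The further lists, whose alternatives were chosen after seeing the data, held 87 tested genes in the main fit. With library totals alone 18 fell and 9 rose, where 11% of all genes fell and 28.3% rose. Against a 1.2-fold change 4 fell and 1 rose, where 4.44% of all genes fell and 11.1% rose. These 4 of 87 are close to the share of all genes. At a threshold of 0.01, 20 fell (12.4% of all genes). Without single libraries 23 to 40 fell (14% to 19.3% of all genes). The cause of these shifts was not tested. No paired analysis was possible because the labels number the libraries 1 to 6 and pair none across groups. VARS2 and SARS2 had few counts and exons that overlap other genes, and why their counts were low was not tested.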
